A study of Drosophila melanogaster with 4 samples.

Results

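The regions described are 1990 compact stretches of H3K79me1 enrichment that lie close together on the autosome arms 2L, 3L and 3R of Drosophila melanogaster. They were taken from 7596 enriched regions of the list deposited for the whole series, here called the combined list. Members were chosen by widths and gaps measured in that list. A region was chosen if it was narrower than 15000 bp and if its previous and its next enriched region both lay under 3000 bp away, edge to edge. Starts above 20 Mb on 2L and above 21.5 Mb on 3L, toward the centromeres, were left out, and 2R took no part in the choice. No such limit was set on 3R, where regions near either end of the arm were kept. These packed regions covered 8.66 Mb, or 33.8% of the 25.6 Mb marked on the same parts of these arms. The choice used positions and the sign of the score in the combined list. Widths, gaps and scores below are therefore descriptions without a test.

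Chromatin came from last-stage (L3) Oregon-R larvae, a wild type strain, harvested from bottles, crosslinked with formaldehyde and sonicated. It was precipitated with a rabbit antiserum to H3K79me1, the monomethylated form of lysine 79 of histone H3. The antibody's reference page in the labels carries the dimethylated form in its address, and the labelled target was used. The series held 2 ChIP and 2 input libraries, all of this strain and stage, with no treatment. Whole larvae mix many tissues, so a region marked in few cells and one marked weakly in all cells cannot be told apart. The labels do not say whether the replicates were separate cultures, and the spread between them may be technical.

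Lysine 79 lies on the globular face of histone H3 rather than on its tail. It is methylated by Dot1 enzymes, of which the fly has grappa (gpp). In flies and other animals this mark lies along transcribed genes. Fly genes lie close together on the chromosome arms, and marked genes can therefore be neighbours. Genes were not assigned to the regions, because the genes available here are placed on genome release 6 and the regions on release 5. Coordinates below are of FlyBase release 5, per the file headers.

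Packed regions were the most frequent kind on these arms in the combined list. They made up 44.5% of the 4469 enriched regions in scope (1990 regions), beside 1599 compact regions with 1 near neighbour, 515 isolated compact regions with none, and 365 broad regions of at least 15000 bp. By arm, 2L held 489 of them, 3L held 712 and 3R held 789. Per megabase that was 24.5 on 2L, 33.1 on 3L and 28.3 on 3R. With the same rule applied to each replicate's own list, 35.8% of regions were packed in replicate 1 (1326 of 3703) and 39.8% in replicate 2 (1722 of 4322). Regions with 1 near neighbour were more frequent than packed ones in replicate 1 (1467) and equally frequent in replicate 2 (1722). By arm, packed regions made up 41.5% of the combined list on 2L, 45.8% on 3L and 45.4% on 3R. In the replicate lists the shares were 37.1% ± 2.46 on 2L, 37.9% ± 1.82 on 3L and 38.2% ± 4.01 on 3R (SD, n = 2).

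Packed regions ranged widely in size and score. The median width was 3026.5 bp, with quartiles of 1783 and 5969 bp, and the narrowest were 1001 bp. Their score in the combined list had a median of 0.46, quartiles of 0.34 and 0.73, and a range of 0.033 to 3.23. The score is the authors' own value for each region. Differences between scores of a list behaved as base 2 logarithms of ratios of whole numbers in 100% of regions of the combined list, 100% in replicate 1 and 99.9% in replicate 2. In base e or base 10 at most 0.298% of scores did. Each list has its own constant, so scores are read within a list. What the whole numbers counted is not given in the sources used here, and the depth behind a region is unknown.

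Score rose with width among packed regions (Spearman rho 0.80 across the 1990 regions, which share libraries and are not independent). The limits of the rule cut through a continuous range. The widest packed region, on 3L from 8511950 to 8526935, was 14986 bp wide with a score of 1.01. A region of 3L at 9759581 to 9774592 was 15012 bp wide with a score of 0.63 and fell just outside. At the gap limit, the region of 3L at 7366792 to 7369723 had its wider gap at 2997 bp and was kept. That of 2L at 8540002 to 8541576 had its wider gap at 3001 bp and was not.

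**Figure D1:**
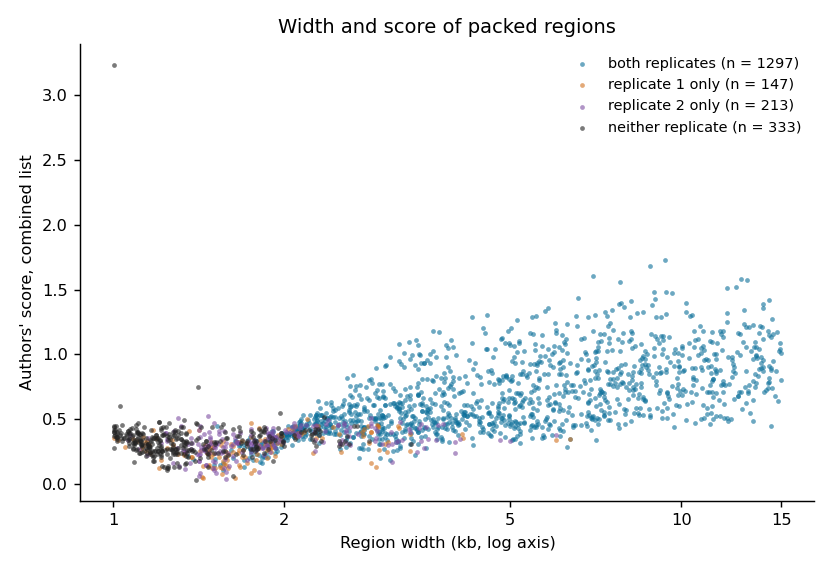
Width in kb (log axis) against the authors' score in the combined list for the 1990 packed regions, 1 point a region, coloured by the replicate lists that overlap it. The 333 regions found in neither replicate sit at the narrow end with a median width of 1274 bp and 1 of them has the highest score, 3.23.

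Most packed regions were found in both replicates. An overlap of at least 1 bp in both lists was found for 1297 of 1990 (65.2%, exact 95% binomial interval 63.0% to 67.3%, which covers counting over regions only). The background was 65.5% over all 7596 enriched regions and 62.1% over compact regions of the same arms, so packed regions as a whole were found in both replicates about as often as enriched regions in general. The combined list came from the same libraries, and the overlap is thus no independent support. Another 147 (7.39%) were found in replicate 1 alone, 213 (10.7%) in replicate 2 alone and 333 (16.7%) in neither. Counted at their full widths, the regions found in both replicates made up 86.4% of the packed sequence (7.48 Mb). That share counts whole regions and not the bases that both replicates covered.

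Support followed width. The median width was 4834 bp for packed regions in both replicates, with a median score of 0.62. For those in neither it was 1274 bp, with a median score of 0.33, and none of them was wider than 3343 bp. Of 221 packed regions of 1001 to 1300 bp, 0 were found in both replicates, with an exact 95% upper limit of 1.66%. The replicate lists hold no region narrower than 1301 bp. From 1301 to 2000 bp 19.3% were found in both (79 of 410), from 2001 to 3000 bp 70.9% (251 of 354), and from 3001 to 5000 bp 90.8% (344 of 379). Above 8000 bp all 308 were.

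Beside compact regions with fewer neighbours, packed ones were found in both replicates more often over all widths, and at a given width the shares lay close together with no fixed order. The overall shares were 61.1% with 1 near neighbour and 53.0% for isolated regions (273 of 515). Isolated regions were narrower, with a median of 2145 bp. Packed regions had the highest share from 1301 to 2000 bp, at 19.3% against 17.7% with 1 near neighbour and 16.7% for isolated regions. Between 2001 and 3000 bp the share was 70.9% for packed (interval 65.9% to 75.6%), 71.2% with 1 near neighbour (65.5% to 76.4%) and 77.1% for isolated regions (67.4% to 85.0%). From 3001 to 5000 bp it was 90.8%, 89.3% and 96.2% in the same order. The intervals of the 3 groups overlap in each of these classes, and the differences were not tested.

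**Figure D2:**
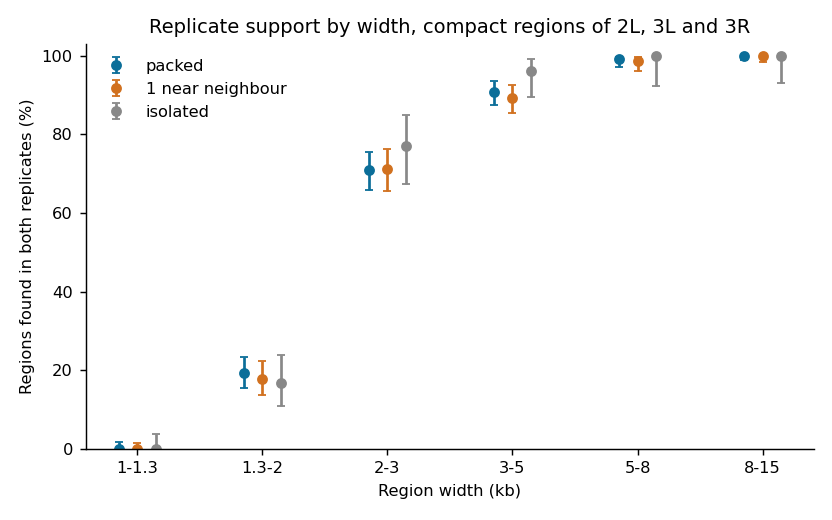
Percentage of compact regions of the combined list on 2L, 3L and 3R overlapped by both replicates, by region width in kb. Points are shares with exact 95% binomial intervals for packed regions, regions with 1 near neighbour and isolated regions. In each group the share climbs from 0% in the narrowest class to 98.7% or more above 5000 bp.

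Coverage of the packed sequence was nearly equal in the replicates over the 3 arms together. Regions of replicate 1 covered 79.7% of it and those of replicate 2 also 79.7%. By arm the values were 80.3% and 78.0% on 2L, 78.7% and 78.5% on 3L, and 80.2% and 81.7% on 3R. They were 77.6% and 80.6% with 1 near neighbour, 74.2% and 79.8% for isolated regions and 96.4% and 95.3% for broad ones. The median packed region was covered over 86.0% in replicate 1 and 85.2% in replicate 2. Where a packed region was found in both lists, regions that scored high in replicate 1 scored high in replicate 2. The Spearman rho of the scores was 0.85 (Pearson's r 0.87) over 1297 regions that share libraries, given as a description. It was higher in the other classes of the same arms. There it was 0.90 with 1 near neighbour, 0.92 for isolated regions and 0.89 for broad ones, and the differences were not tested. A match could rest on few bases, and a replicate region that joined neighbours could give its score to each. The main match also reached another region of the combined list for 12.2% of matched packed regions in replicate 1 and 2.58% in replicate 2. The part of such matches in the lower rho was not tested. The median score of the matching region was 0.69 in replicate 1 and 0.64 in replicate 2.

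Among the 1198 packed regions covered over at least 50% in both replicates, the 5 of highest score were 6978 to 13071 bp wide. The highest of these was 2L from 5316127 to 5325471 (9345 bp), with 1.73 in the combined list, 1.75 in replicate 1 and 1.78 in replicate 2. It lay 407 bp from the region before it and 1687 bp from the next. The region of 3L at 14784498 to 14793318 followed, with 1.68, 1.72 and 1.69. Next came 3L from 3226431 to 3233408 (1.61, 1.58 and 1.69), 3L from 6722799 to 6735562 (1.58, 1.57 and 1.62) and 3R from 27603096 to 27616166 (1.57, 1.61 and 1.64), each in the order combined list, replicate 1, replicate 2. All 5 were single regions in both replicates and covered over at least 95.9% in each. They lay within 2000 bp of both neighbours.

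At the other end stood narrow regions of low score that both replicates still listed. The lowest was on 3R from 19182744 to 19184301, 1558 bp wide, with a combined score of 0.11 and scores of 0.22 in replicate 1 and 0.21 in replicate 2. It was covered over 92.0% and 98.1%, and the next region began 47 bp after it. The following 4 were 1505 to 1824 bp wide, with combined scores of 0.13 to 0.16. They lay on 3R from 7584780 to 7586476, 3R from 15452348 to 15453888, 2L from 4903966 to 4905470 and 3R from 6202070 to 6203893. Their lowest coverage in a replicate was 78.4%.

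The narrowest packed regions, 7 of 1001 bp, were found in neither replicate except for 1. That region, on 2L from 8095448 to 8096448, was covered over 100% in replicate 1 and 0% in replicate 2. Combined scores of 6 of the 7 were 0.28 to 0.45. The remaining one, on 3L from 9570294 to 9571294, had the highest score of all packed regions, 3.23, without a region in either replicate.

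Gaps between packed regions and their neighbours were short. There were 2660 such gaps, with a median of 669 bp and quartiles of 239 and 1310 bp, and they added up to 2.34 Mb. Gaps under 100 bp numbered 302 (11.4%) and gaps under 500 bp 1100 (41.4%), while 2 were of 0 bp, where the combined list splits directly adjoining sequence. The centres of neighbouring regions lay a median of 5055 bp apart, with quartiles of 3302 and 8084 bp. Few gaps were bridged in a replicate, and more in replicate 1 than in replicate 2. Regions of replicate 1 covered 5.34% of the gap sequence and those of replicate 2 covered 1.27%. A whole gap was covered in 137 cases (5.15%) in replicate 1, in 32 (1.20%) in replicate 2 and in 1 in both.

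Where the regions on both sides of a gap were found in both replicates, the gap itself was nearly always found too. Of 1294 such gaps, 1183 (91.4%, interval 89.8% to 92.9%) separated regions in both replicates. Replicate 1 alone joined the neighbours at 93 gaps (7.19%), replicate 2 alone at 17 (1.31%) and both at 1. Gaps joined in replicate 1 alone had a median of 96 bp in the combined list. Where all lists split, the gap was 672 bp long in the combined list, 1041 bp in replicate 1 and 1177 bp in replicate 2 in the median. Gap lengths of the replicates ranked alike, with a Spearman rho of 0.67 over 1183 gaps, which share libraries. By gap length, replicate 1 covered 24.2% of the sequence in gaps of at most 100 bp and 3.02% in gaps above 2000 bp. In replicate 2 these values were 10.4% and 0.613%.

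Replicate borders lay mostly inside those of the combined list. The median distance between a border and that of the best matching replicate region was 132.5 bp in replicate 1 and 110 bp in replicate 2, over 1444 and 1510 packed regions. The replicate border was on the inner side in 71.6% and 86.9% of cases. This was not particular to packed regions. The shares were 78.6% and 82.8% with 1 near neighbour and 85.4% and 77.0% for isolated regions. Median distances of these other compact regions were smaller, at 110 and 88 bp with 1 near neighbour and 106 and 73 bp for isolated ones. The upper quartile of the distance was 558.5 and 470 bp for packed regions, 349 and 278 bp with 1 near neighbour and 230 and 170 bp for isolated ones. For broad regions it was larger, at 3257 and 5234.5 bp. In pairs of 1 region with 1 region it was 286 and 262.5 bp for packed regions and 205 and 156 bp for isolated ones. Of the matching regions, 76.0% in replicate 1 and 92.3% in replicate 2 were narrower than the packed region. Replicates split 199 packed regions (13.8%) and 262 (17.4%) into more than 1 region. A packed region's main match also reached another region of the combined list in 176 cases (12.2%) in replicate 1 and in 39 (2.58%) in replicate 2.

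**Figure D3:**
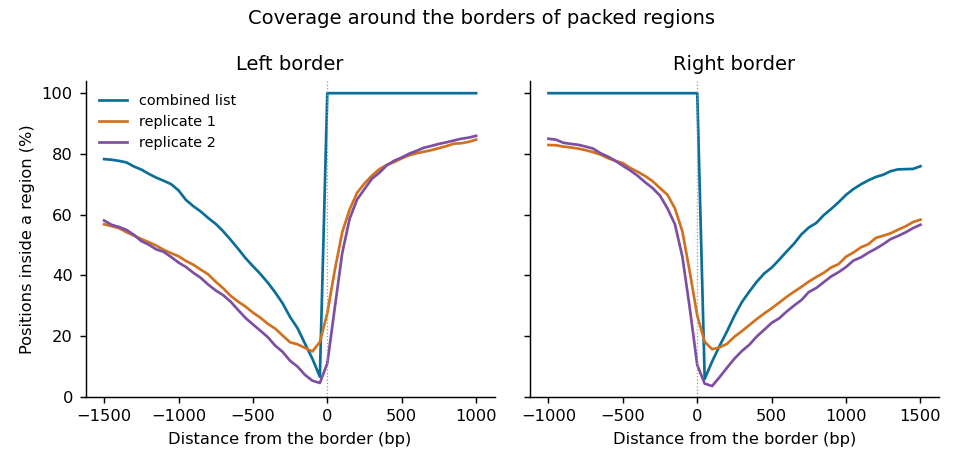
Percentage of positions inside an enriched region at each distance in bp from the left and right borders of the 1359 packed regions of at least 2000 bp, for the combined list and each replicate. Coverage in the replicates falls from 84.7% and 85.9% at 1000 bp inside the left border to 27.5% and 11.0% at its first base, and climbs again on the far side, where the next regions lie.

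Close spacing was also seen in the replicate lists. Among packed regions with a match, the match had neighbours of its own list under 3000 bp away on both sides in 60.5% (873 of 1444) in replicate 1 and in 62.0% (936 of 1510) in replicate 2. Over all regions of these lists on the same arms, 39.1% (1447 of 3703) and 42.1% (1821 of 4322) had such neighbours. These backgrounds include the matches of packed regions. The share was 6.77% and 4.79% for matches of regions with 1 near neighbour in the combined list. For matches of its isolated regions it was 0.329% and 1.14%. The combined list and the replicate lists come from the same libraries. The higher share of packed regions and the lower shares of the other 2 classes therefore follow in part from the choice. A packed region's match had no near neighbour in 8.24% and 5.96%. Of the 1297 found in both replicates, 641 (49.4%) had such neighbours on both sides in both lists and 319 (24.6%) in neither list.

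Within each width class, packed regions had a lower median score than isolated ones in all 3 lists. Widths inside a class were not matched. Classes were taken within each list by the same width and gap limits, and 5 width classes could be compared in the replicates. From 8001 to 14999 bp the median score was 0.99 for packed and 1.12 for isolated regions in replicate 1 (235 and 69 regions), and 0.99 against 1.09 in replicate 2 (249 and 53 regions). The mean difference, packed minus isolated, was -0.11 ± 0.024 (SD, n = 2) on the log2 scale of the score. It was -0.094 ± 0.036 from 5001 to 8000 bp, -0.060 ± 0.019 from 3001 to 5000 bp, -0.034 ± 0.013 from 2001 to 3000 bp and -0.039 ± 0.014 from 1301 to 2000 bp. In the combined list the difference ranged over 6 width classes from -0.018 (2001 to 3000 bp) to -0.21 (3001 to 5000 bp). The last value compares a median of 0.54 over 379 packed regions with one of 0.75 over 80 isolated ones, and was larger than in the replicates (-0.047 and -0.073). Each mean difference was larger than the SD of the replicates. That holds by arithmetic for 2 values of the same sign unless they lie far apart, so it is no check. The quartile ranges of the classes overlapped. Lower scores than isolated regions were not particular to packed regions. Those with 1 near neighbour lay between or close to the packed ones, with packed minus 1 near neighbour at -0.0051 ± 0.0038 from 3001 to 5000 bp and -0.068 ± 0.0087 from 8001 to 14999 bp (SD, n = 2). In the combined list packed regions stood higher than these from 2001 to 3000 bp, by 0.0031. Classes rest on the same region calls as the scores, so no test was made.

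**Figure D4:**
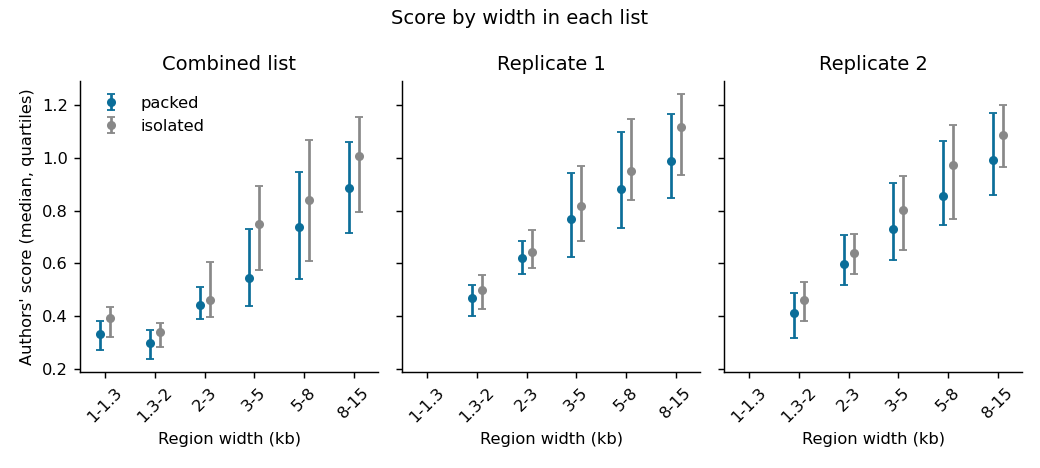
The authors' score by region width in kb for packed and isolated regions of 2L, 3L and 3R in each list; points are medians and bars reach from the lower to the upper quartile. The packed median lies below the isolated one in each width class of each list, while the bars overlap.

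Packed regions were strung together in runs, defined as successive enriched regions under 3000 bp apart. Such runs numbered 586 and spanned 21.97 Mb, with a median span of 29.5 kb and a longest span of 208 kb. The median run held 5 enriched regions, of which 3 were packed ones by the rule, since the regions at both ends of a run have a near neighbour on 1 side only and broad ones are not counted. Enriched sequence filled 88.6% of the median run in the combined list, 74.9% in replicate 1 and 75.1% in replicate 2. Runs with 1 packed region were the most frequent kind (170 runs, 29.0%). The 138 runs with at least 5 packed regions held 51.8% of all packed regions, and 29 runs held at least 10. Of the 306 runs with at least 3, every packed region was found in both replicates in 74 and none in 15.

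Some runs also held broad regions. A broad region was part of 194 runs (33.1%), and 315 packed regions (15.8%) were direct neighbours of one. Those neighbours were wider than the other packed regions, with medians of 4000 and 2923 bp, and were found in both replicates in 74.3% (interval 69.09% to 79.02%) against 63.5% (61.1% to 65.8%). Their median score in replicate 1 was 0.78 against 0.68, and in replicate 2 it was 0.73 against 0.63. The difference was not tested, and no comparison at equal width was made. Both neighbours of a packed region were packed as well in 880 cases (44.2%).

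The longest unbroken stretch of packed regions held 19 of them, on 3L in a run from 9653385 to 9778301 with 22 enriched regions. Both replicates had 13 of the 19, each replicate alone had 2, and 2 were in neither. Widths ran from 1005 to 14424 bp and gaps from 40 to 1844 bp. The region of highest score, from 9696992 to 9707171, had 1.40 in the combined list, 1.49 in replicate 1 and 1.36 in replicate 2. It was followed 1131 bp later by one of 14424 bp with scores of 1.28, 1.31 and 1.30 in the same order. Strong and weak regions lay side by side in this run. The region from 9660152 to 9665698 had a score of 1.29, with 1.16 and 1.35 in the replicates, and was followed after 86 bp by one of 1126 bp with a score of 0.29. Replicate 1 joined these neighbours, and replicate 2 listed the first of them only. The region just past the width limit, described above, closed the stretch.

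On 2L the longest stretch held 13 packed regions in a run from 12455487 to 12543773. Of these, 8 were found in both replicates, 4 in replicate 1 alone and 1 in neither. Replicate 1 covered 78.5% of the run and replicate 2 covered 54.8%, gaps included. Over all runs the medians were 74.9% and 75.1%, and in some other runs the replicates differed more than here. The widest region, from 12492307 to 12506736, had scores of 0.74 in the combined list, 0.88 in replicate 1 and 0.79 in replicate 2. The highest score was that of 12529538 to 12541289, with 1.16, 1.19 and 1.26. All 4 regions that replicate 2 lacked and replicate 1 had were at most 2838 bp wide, with combined scores of 0.14 to 0.40.

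On 3R the longest stretch also held 13, in a run from 12070821 to 12180028. Here 11 were found in both replicates and 2 in replicate 1 alone. Widths were 1558 to 11699 bp and gaps 27 to 2775 bp. The region from 12086837 to 12098535 stood highest, with scores of 1.18 in the combined list, 1.19 in replicate 1 and 1.21 in replicate 2, and was covered over 99.6% and 99.5%. The neighbours from 12159528 to 12164364 and from 12164392 to 12171940 were 27 bp apart, and both replicates covered each over at least 95.1%.

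**Figure D5:**
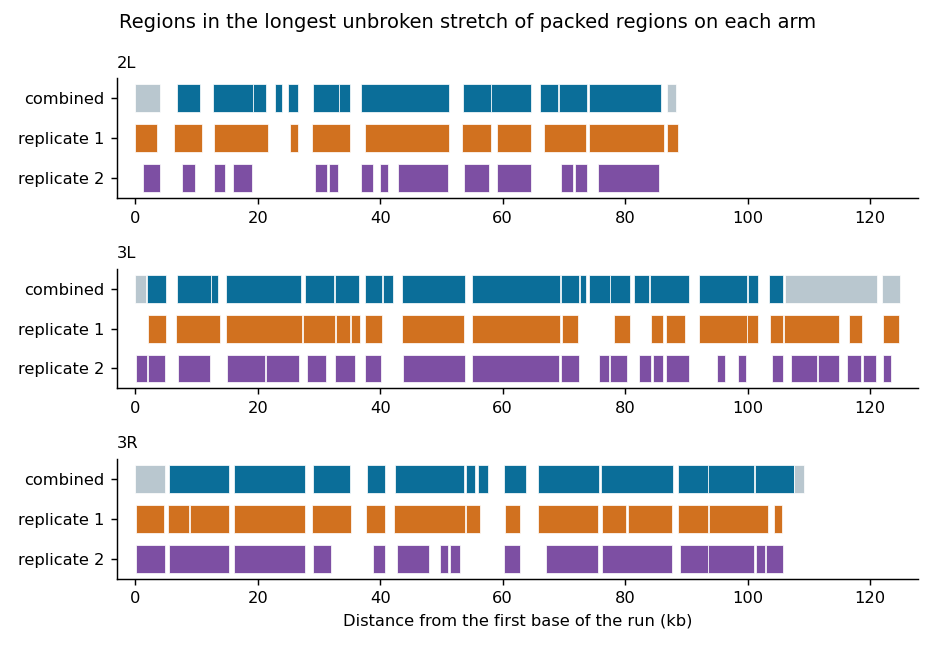
Enriched regions in the runs that hold the longest unbroken stretch of packed regions on 2L, 3L and 3R, drawn to scale against the distance in kb from the first base of each run. Dark blue boxes are packed regions and grey ones other regions of the combined list; orange and purple boxes are regions of replicates 1 and 2. The 2L run is filled over 78.5% in replicate 1 and 54.8% in replicate 2.

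Within runs, the score of a packed region said little about that of the next one. Over 1320 pairs of successive packed regions the Spearman rho of the scores was 0.19, a weak relation given as a description.

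Packed regions occurred along the whole of each arm in scope, at uneven density. Over 68 full windows of 1 Mb the median was 29 packed regions, with quartiles of 20 and 36 and a range of 7 to 66. In the combined list the 3 densest windows were on 3L. Between 14000001 and 15000000 there were 66 packed regions among 110 enriched ones, and 54.5% of the 66 were found in both replicates. By the rule in the replicates' own lists this window held 28 packed regions in each. Between 9000001 and 10000000 there were 51 among 80 enriched ones (68.6% of the 51 in both replicates), with 32 and 36 in the replicate lists. Between 11000001 and 12000000 there were 48 (54.2% in both), with 23 and 29. None of these was the densest window of a replicate list. In replicate 1 that was 3L from 12000001 to 13000000, with 37, and in replicate 2 3L from 16000001 to 17000000, with 49, where the combined list had 30 and 42. Between 8000001 and 9000000 on 2L there were 43 among 94 enriched ones in the combined list, 35 packed in replicate 1 and 48 in replicate 2. The fewest in the combined list were on 2L, with 7 between 17000001 and 18000000, all 7 found in both replicates. Enriched regions were also few in this window, at 21, of which 33.3% were packed. In the replicate lists this window held 7 each. There 3R from 3000001 to 4000000 held fewer, 4 and 6, against 12 of 44 enriched ones (27.3%) in the combined list.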

How the data were processed

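Bowtie 0.12.7, a short-read aligner, is named in the submitters' processing notes. The authors deposited region lists with a start, an end and a score per region, in coordinates of FlyBase release 5 per the file headers. One list per ChIP replicate and one for the series were used. The caller, its threshold, the use of input and how replicates were combined are not given in the sources used here. Input libraries had no list here, so no background could be set beside the ChIP values. Tag totals and depth are unknown, and no interval covers tag counts.

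Enriched regions (score above 0) were sorted by arm, and neighbours, gaps, overlaps of at least 1 bp and covered base pairs were computed. The match in a replicate was the region overlapping most. Scores were tried as logarithms of ratios whose denominator did not exceed 60000 (relative tolerance 1e-13). The interval functions were tested on simulated data and equalled a brute-force count in 5 of 5 pairs of lists. Figures used matplotlib 3.10.9. Computation used scipy 1.17.1 and pandas 2.3.3 with numpy 2.4.6 under Python 3.11.15.

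No test was made, because the members rest on calls from these libraries. Members, lists and descriptions were chosen with earlier results of these data known. Regions named were the 5 highest and 5 lowest scores among those covered over at least 50% in both replicates, the widest and narrowest, those at the limits, the run with the most consecutive members on each arm and the 3 densest windows; others were named after their values were seen. The lowest window, single regions within runs and the overall highest score belong to the latter. Alternatives were other gap and width limits, a minimum width of 1301 bp, stricter overlap, each replicate left out and other windows. Merging of regions was added after seeing the data. Genes and sequence of the regions were planned and are not analysed here.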

Additional observations from a re-analysis of the deposited data

How the results depend on the processing

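Of 30 alternative values, 22 stayed within the set range and 8 moved out of it. That range was the SD of the replicates, the binomial interval for a share, or a factor of 1.5 for counts. With 2 replicates, each lies within the SD of their mean by arithmetic. Coverage, score, covered gap sequence and border distance with a replicate left out therefore could not move, and are no check. All alternative values were counts, shares, scores or distances that cannot fall below 0, so no direction was checked. The score difference between packed and isolated regions was not among them. The number of packed regions was 1326 to 1722 in the lists of 1 replicate each. It was 878 after regions under 500 bp apart were merged, which joins neighbours by construction, and 1668 with regions under 100 bp apart merged. Gap limits of 2000 and 5000 bp gave 1588 and 2479. The share found in both replicates was 60.2% with at least 50% of the region covered and 50.8% with at least 50% of both regions. With regions under 1301 bp dropped before the rule was applied, 1528 regions were packed. Of this different set 74.8% were found in both. Mean coverage was 79.7% in each replicate, 80.3% with the 2000 bp gap limit and 78.8% with 5000 bp, outside an SD of 0.0165 alone. The border distance was 97.8 bp in 1 to 1 pairs, which leave out split and joined regions, and 110 to 132.5 bp by replicate. Scores were 0.64 to 0.69 and covered gap sequence 1.27% to 5.34% with a replicate left out. No paired analysis was possible because the groups that share replicate numbers are ChIP and input, and no input list was used here; differences taken within each ChIP replicate stand in the report with their SD. Depth was unknown, so regions missing from 1 replicate cannot be judged by it.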

Other observations

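The same width and gap limits, with no limit on position, gave 678 packed regions on X and 527 on 2R. Their median widths were 3114 and 3313 bp, beside 3026 bp for the 1990 described above. They were found in both replicates in 65.9% (interval 62.2% to 69.5%) and 68.9% (64.7% to 72.8%). Median scores in the combined list were 0.54 on X and 0.50 on 2R, against 0.47, 0.45 and 0.47 on 2L, 3L and 3R.

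Regions of significant depletion, 8 in the combined list, overlapped no packed region. Enriched and depleted regions are calls of opposite sign in the same list, so the absence of overlap says little by itself. The depleted regions on 2L, 3L and 3R lay 85 bp or more from the nearest packed region. The closest, on 2L from 10219411 to 10220976 with a score of -0.0057, followed a packed region of score 0.99 that ended at 10219325. On 3R a depleted stretch from 26632384 to 26634069, with a score of -0.036, ended 298 bp before a packed region of score 0.96. Neither depleted stretch was listed in a replicate.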
